A study of Mus musculus with 6 samples.

Results

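Complex I of the respiratory chain was examined in mouse left ventricle through all 46 rows of the expression table whose symbol starts with Nduf, leaving out symbols marked -ps. They are 46 of 31273 rows and comprise 38 genes named as subunits and 8 Ndufaf genes, which encode assembly factors. All 46 reached the mean of 1 TPM needed for testing, as did 12404 genes in all, and every member was above that level in both groups. Ndufb1-ps was left out by its symbol, although RefSeq now lists it as Ndufb1.

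Polyadenylated RNA was sequenced from the left ventricles of mice in 2 groups of 3 libraries. The first group carries a control genotype label and the second a label of cardiomyocyte-specific overexpression of RBM20, an RNA-binding protein that regulates splicing in heart muscle. The series describes the overexpression model as a knock-in that tamoxifen switches on in cardiomyocytes, and its title links raised RBM20 to dilated cardiomyopathy. The driver of the recombinase, strain, age, sex, whether the control mice received tamoxifen and the time after it are not given in the labels used here. Values are TPM, a share of all transcripts corrected for gene length. Replicates are numbered 1 to 3 within each group. The labels do not state that each library came from its own animal, so the p-values cover library-to-library spread alone.

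Complex I, the NADH:ubiquinone oxidoreductase, takes electrons from NADH and passes them through a flavin and a chain of iron-sulfur clusters to ubiquinone, while pumping protons across the inner mitochondrial membrane. Its L shape has a matrix arm, which holds the redox centres, and a membrane arm, which pumps. The core subunits of the matrix arm are encoded in the nucleus and those of the membrane arm in the mitochondrial genome, and nuclear accessory subunits surround both arms. Assembly factors help to build the complex and are not part of the finished enzyme. Heart muscle is rich in mitochondria and relies on this pathway for most of its ATP.

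As a check of the labels, Rbm20 measured 74.9, 90.9 and 79.5 TPM in controls against 321, 913 and 907 TPM under overexpression, where replicate 1 was well below the other 2. Esr1 was at 0.234 to 0.415 TPM in controls and at 53.0 to 217.8 TPM in overexpression libraries, so the groups also differ in reads assigned to this estrogen receptor gene. Whether these reads come from Esr1 itself or from another sequence that holds part of it was not tested. Titles use cki for control and cre for overexpression libraries. The Rbm20 and Esr1 differences separate the same libraries, and their parts cannot be told apart. Overexpression replicate 1 alone had RNA of the Y-linked Ddx3y, at 88.1 TPM against 0 in the other 5 libraries. Mitochondrially encoded transcripts took 48.3 to 52.0% of TPM in controls and 36.7 to 41.0% in overexpression libraries. TPM have a fixed total in every library. The median log2 difference over all tested genes was 0.55, and dividing the libraries by median-ratio size factors moved it to 0.01. Values after this division are called rescaled below, and differences are overexpression minus control on the log2(TPM + 1) scale.

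RNA of complex I genes was lower in the overexpression group in nearly every member. With limma and a Benjamini-Hochberg adjusted p under 0.05, 39 of the 46 genes were called lower in TPM and 0 higher, where 9.09% of all tested genes were called lower and 59% called higher. Of the subunits, 34 of 38 fell, with a median log2 difference of -0.58. Among assembly factors, 5 of 8 fell, with a median of -0.31. After rescaling all 46 members were called lower, where 24% of all tested genes were called lower and 22.2% higher, with medians of -1.21 for subunits and -0.90 for assembly factors. In 41 of the 46 genes every overexpression library lay below every control library in TPM, as it did for 10.4% of all tested genes, while 62.1% lay wholly above. The call of 33 members, 32 of them subunits, also held with each library left out in turn, and the 6 that lost it at least once were Ndufb2, Ndufb6, Ndufaf1, Ndufaf3, Ndufaf6 and Ndufaf7. In bulk tissue, fewer cells of a type and less RNA per cell cannot be told apart.

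**Figure D1:**
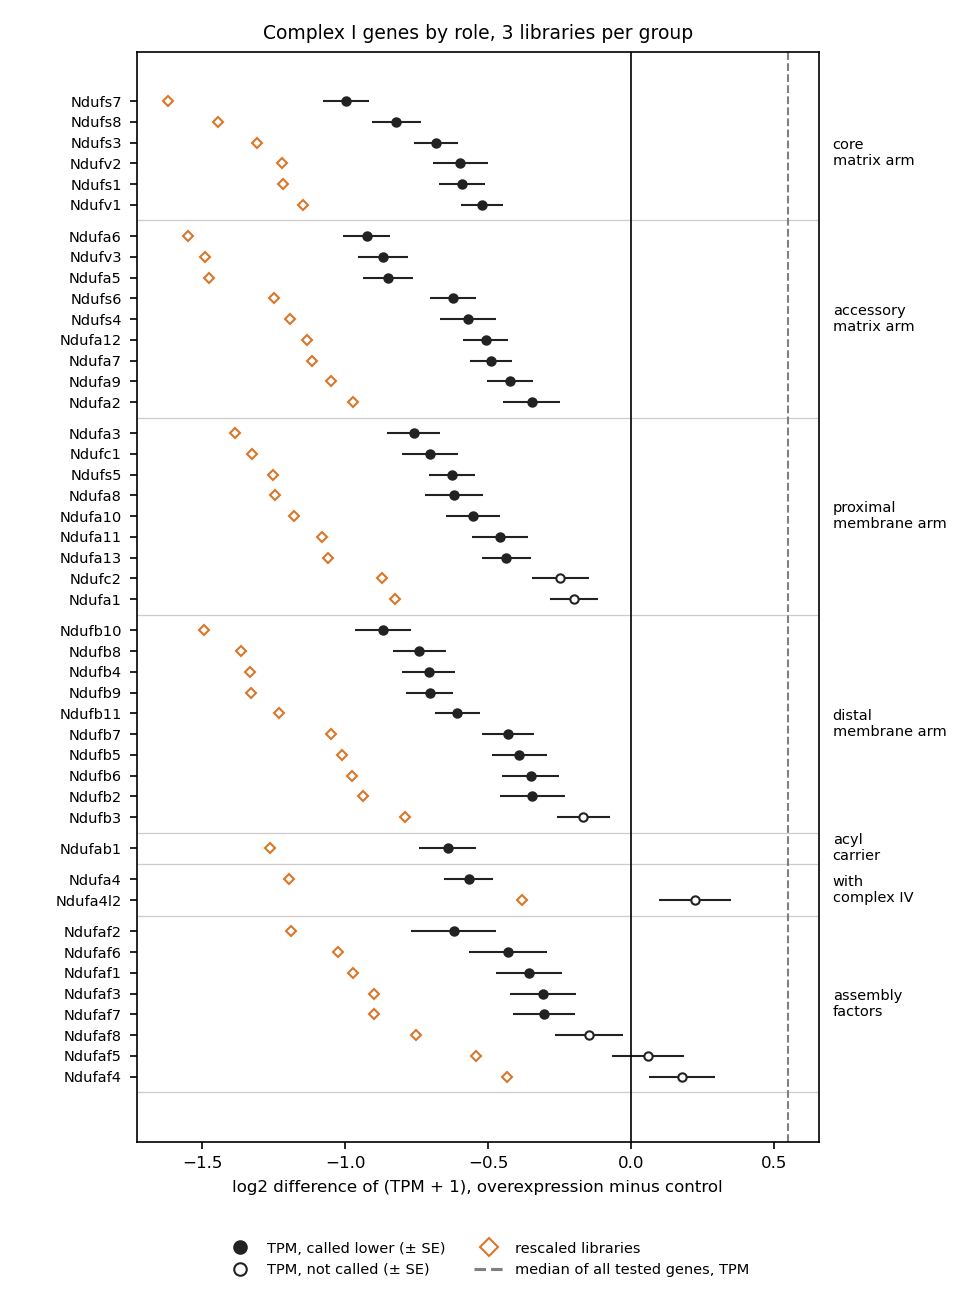
Difference in log2(TPM + 1), overexpression minus control, for the Nduf genes, arranged by its place in complex I. Circles are limma estimates in TPM with standard errors (filled where called lower), orange diamonds are the rescaled values, and the dashed line is the median of all genes in TPM. In TPM almost all subunits lie left of 0, with Ndufs7 farthest at -0.997 and Ndufa4l2 at 0.22 on the other side, and all diamonds lie left of 0.

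Promoter sequences are given for the members whose upstream region holds a match to the palindromic motif of nuclear respiratory factor 1 (NRF1), a known activator of respiratory chain genes. They are shown because they set genes that fell beside Ndufaf4, whose RNA did not pass the test in TPM. RefSeq gave 42 windows of 300 bases for 40 of the 46 members in GRCm38.p6, each running from 250 bases before an annotated start to 50 after it. Capitals mark the NRF1 letters, GCGCA and GCGC with any 1 base between them, and AAGGTCA for estrogen-related receptors (ERR), on either strand. Only bases before the RefSeq start and before every GENCODE M21 transcript start of the gene are printed, and all 4 genes with an NRF1 match in these bases are shown, 5′ to 3′ on the gene's strand. The regions are chr4:123718203-123718436 on the minus strand for Ndufs5, chr17:56717512-56717761 on the plus strand for Ndufa11, chr16:37654454-37654618 on the minus strand for Ndufb4 and chr4:24897833-24898082 on the plus strand for Ndufaf4.
Ndufs5: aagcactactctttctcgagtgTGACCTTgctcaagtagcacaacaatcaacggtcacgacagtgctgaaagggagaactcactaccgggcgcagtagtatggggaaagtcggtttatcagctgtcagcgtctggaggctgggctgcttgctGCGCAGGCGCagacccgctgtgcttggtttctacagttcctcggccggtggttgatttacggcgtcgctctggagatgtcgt
Ndufa11: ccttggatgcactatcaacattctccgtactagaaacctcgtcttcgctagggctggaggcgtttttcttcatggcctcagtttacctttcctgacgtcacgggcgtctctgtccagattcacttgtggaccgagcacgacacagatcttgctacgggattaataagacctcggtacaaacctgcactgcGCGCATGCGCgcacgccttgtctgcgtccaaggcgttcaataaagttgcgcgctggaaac
Ndufb4: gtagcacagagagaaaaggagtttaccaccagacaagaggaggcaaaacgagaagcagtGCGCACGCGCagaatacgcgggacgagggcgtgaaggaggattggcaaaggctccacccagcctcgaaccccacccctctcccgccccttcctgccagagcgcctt
Ndufaf4: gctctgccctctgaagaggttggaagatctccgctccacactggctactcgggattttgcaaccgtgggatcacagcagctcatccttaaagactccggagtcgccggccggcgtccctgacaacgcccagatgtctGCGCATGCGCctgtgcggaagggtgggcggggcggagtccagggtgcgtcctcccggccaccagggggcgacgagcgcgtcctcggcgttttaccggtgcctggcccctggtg

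The Ndufs5 sequence carries NRF1 letters at bases 153 to 162 of the printed run and ERR letters, on the opposite strand, at bases 23 to 29. In Ndufa11 the NRF1 letters are at bases 191 to 200, in Ndufb4 at bases 60 to 69 and in Ndufaf4 at bases 138 to 147. NRF1 matches occurred in 10 of the 42 member windows (23.8%), against 4.6% of 32851 windows of all genes. The Ndufb4 window has further NRF1 letters in bases that lie within a GENCODE M21 transcript and are not printed. The 10 spellings searched, all on both strands, and the sequences shown were chosen after values had been seen, and no test was made of the shares. The other 9 spellings, some of which overlap each other, are reported next, as the share of member windows and then of all windows. ERR letters AAGGTCA were found in 7.14% against 4.72%, and the longer TNAAGGTCA in 2.38% against 1.28%. GABP letters CCGGAAG were found in 14.3% against 8.86%. For YY1, AAGATGGC stood in 19.0% against 2.75% and AANATGGCG in 19.0% against 2.38%. Sp1 letters GGGCGG were in 52.4% against 35.7% and MEF2 letters, CTA and TAG with any 4 bases between them, in 2.38% against 3.69%. The cyclic AMP element TGACGTCA was in 7.14% against 1.79% and its shorter form TGACGT in 11.9% against 7.51%. A match shows only that the letters are present.

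Nuclear core subunits carry the redox chemistry of the matrix arm, and the 6 described here all fell, with log2 differences from -0.997 to -0.52. Ndufs7 holds the last iron-sulfur cluster before ubiquinone. Its level was 345, 336 and 312 TPM in controls and 159, 171 and 166 TPM under overexpression, with no overlap. The means of 331 ± 17.2 and 165 ± 5.95 TPM (SD, n = 3 each) give 0.499 times the control level, and the log2 difference of -0.997 (SE 0.0812, limma adjusted p = 3.55e-05) was the largest fall of any member. In GRCm38 the gene spans bases 80249121 to 80256794 of chromosome 10, plus strand.

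Ndufs8, which binds a pair of iron-sulfur clusters next to Ndufs7, stood at 319, 296 and 286 TPM in controls and 159.5, 172 and 177 TPM under overexpression. The log2 difference was -0.82 (SE 0.0849, limma adjusted p = 9.49e-05), again with the groups apart. Ndufs3, part of the framework of the quinone-binding module, stood at 525, 506 and 481 TPM against 302, 315 and 324 TPM, a log2 difference of -0.68 (SE 0.0782, limma adjusted p = 0.000146). Its groups did not overlap either.

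The other 3 of these subunits belong to the tip of the matrix arm, where NADH is oxidised. Ndufv1, which binds NADH and the flavin, measured 629.9, 634 and 601 TPM in controls and 431, 428 and 439 TPM under overexpression. Ndufv2, an iron-sulfur subunit beside it, measured 532, 492 and 440.4 TPM against 301, 329 and 335 TPM. Ndufs1, the largest subunit, which carries several clusters, measured 445, 448 and 420.4 TPM against 275, 289 and 308 TPM. In all 3 genes the highest overexpression library was below the lowest control, and the log2 differences were -0.52, -0.60 and -0.59 in the order named (limma adjusted p = 0.000392, 0.000727 and 0.000349).

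**Figure D2:**
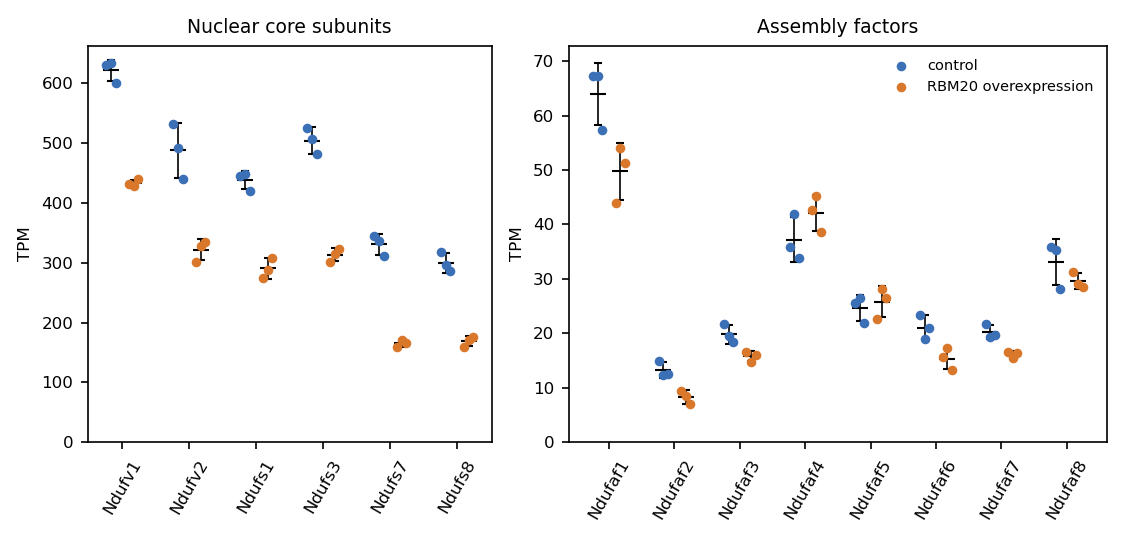
TPM in each of the 6 libraries (points, blue for control and orange for overexpression) with group mean and SD, for 6 nuclear core subunits (left) and the 8 assembly factors (right), on linear axes. The groups are apart in these 6 core subunits, whereas Ndufaf4, Ndufaf5 and Ndufaf8 overlap.

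All 9 accessory subunits of the matrix arm fell (median -0.57, range -0.92 to -0.35). Ndufa6, a LYR-motif protein that holds an acyl carrier protein against this arm, measured 320.5, 297 and 292 TPM in controls and 163, 151 and 163 TPM under overexpression. Its log2 difference of -0.92 (SE 0.0818, limma adjusted p = 4.92e-05) was second to that of Ndufs7. Ndufv3, a small protein attached to the NADH-oxidising tip, measured 178, 169 and 161 TPM against 85.6, 96.5 and 94.3 TPM, a log2 difference of -0.87 (SE 0.0886, limma adjusted p = 9.04e-05).

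The smallest falls of this arm were those of Ndufa9 and Ndufa2. Ndufa9, which binds a nucleotide near the junction of both arms, measured 521, 507 and 476 TPM in controls and 353, 384 and 384 TPM under overexpression (log2 difference -0.42, limma adjusted p = 0.00187). Ndufa2, an accessory protein with a thioredoxin-like fold, measured 428, 370.1 and 393 TPM against 346, 287 and 303 TPM (log2 difference -0.35, limma adjusted p = 0.0132). Both genes kept the groups apart, although overexpression replicate 1 of Ndufa2 came close to control replicate 2.

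Around the proximal membrane arm, which joins the matrix arm, 7 of 9 accessory subunits fell (median -0.55, range -0.76 to -0.20). Ndufa3, a single-span membrane protein, measured 444, 459.8 and 390.1 TPM in controls and 262, 262 and 237 TPM under overexpression (log2 difference -0.76, SE 0.0929, limma adjusted p = 0.0002). Ndufc1, another small membrane subunit, measured 192, 163 and 163 TPM against 110.2, 107 and 99.2 TPM (log2 difference -0.70, limma adjusted p = 0.000352). The 2 groups were well apart in both.

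Ndufc2 and Ndufa1 did not pass the test in TPM, although no library of one group overlapped the other. Ndufc2 measured 374, 352 and 318 TPM in controls and 263, 312 and 304 TPM under overexpression (log2 difference -0.25, limma adjusted p = 0.0537). Ndufa1, an X-linked single-span subunit needed for assembly, measured 559.5, 491 and 504 TPM against 469, 437 and 445 TPM (log2 difference -0.20, SE 0.0839, limma adjusted p = 0.0592). After rescaling the differences were -0.87 and -0.83 and both were called. Without control replicate 3 Ndufc2 was called in TPM too (limma adjusted p = 0.0422). The only other X-linked member, Ndufb11, was at 306, 303 and 303 TPM under overexpression. In both X-linked genes the library with Ddx3y RNA was the highest of its group by a small margin, and an effect of sex was not tested.

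In the distal membrane arm 9 of 10 accessory subunits fell (median -0.52, range -0.87 to -0.17). Ndufb10, a disulfide-bonded subunit on the intermembrane side, measured 986, 1002 and 857 TPM in controls and 503, 488 and 567 TPM under overexpression (log2 difference -0.87, SE 0.0975, limma adjusted p = 0.000136). Ndufb8, a single-span subunit, measured 476, 478 and 414 TPM against 255, 288 and 274 TPM (log2 difference -0.74, limma adjusted p = 0.000222). Each kept a wide gap between groups.

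Smaller differences in this arm were found for Ndufb2 and Ndufb3. Ndufb2 measured 21.6, 20.3 and 18.5 TPM in controls and 15.04, 16.6 and 15.3 TPM under overexpression (log2 difference -0.35, SE 0.113, limma adjusted p = 0.0239). The groups were apart, but the call was lost without control replicate 1 or 2 or overexpression replicate 1 or 3 (limma adjusted p = 0.0509 to 0.0854). Ndufb3, a small membrane subunit, measured 417, 412 and 382 TPM against 323, 384 and 374 TPM, so that overexpression replicate 2 lay above control replicate 3. Its log2 difference of -0.17 (SE 0.0929, limma adjusted p = 0.14) did not pass in TPM, and the rescaled value of -0.79 did. Ndufb1-ps, the row left out by its symbol, fell from 246 ± 28.6 to 184 ± 3.46 TPM (SD, n = 3 each), a log2 difference of -0.41 (limma adjusted p = 0.00625).

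Ndufab1, the mitochondrial acyl carrier protein, sits in both arms and also serves fatty acid and iron-sulfur cluster synthesis. It measured 183, 189 and 164 TPM in controls and 105, 124 and 114 TPM under overexpression (log2 difference -0.64, limma adjusted p = 0.000594), with no overlap. Ndufa4, once counted as a complex I subunit and now placed with cytochrome c oxidase, fell from 959, 827 and 843 TPM to 577, 587 and 605 TPM (log2 difference -0.57, limma adjusted p = 0.00055). Its paralog Ndufa4l2, known as a gene induced by low oxygen, was not called in TPM. Ndufa4l2 measured 29.5, 22.4 and 23.9 TPM in controls and 29.97, 31.0 and 27.5 TPM under overexpression, where control replicate 1 overlapped the other group. Its log2 difference was 0.22 in TPM (SE 0.127, limma adjusted p = 0.148) and -0.38 after rescaling (limma adjusted p = 0.0393), so the direction turns with the scaling. Without control replicate 1 the TPM difference was 0.33 and was called higher (limma adjusted p = 0.0453).

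In TPM the 8 assembly factors were far less abundant, with a median control mean of 22.9 TPM against 397 TPM for subunits. Ndufaf2, a relative of Ndufa12 that binds a late assembly intermediate, had the largest fall of this class. It measured 14.9, 12.3 and 12.5 TPM in controls and 9.42, 8.46 and 6.95 TPM under overexpression (log2 difference -0.62, SE 0.149, limma adjusted p = 0.00576), with the groups apart. Its exons overlap those of an antisense noncoding gene, and the strand setting of the counting is not given in the sources used here. Ndufaf6, needed early in assembly, measured 23.4, 18.9 and 20.9 TPM against 15.6, 17.2 and 13.3 TPM (log2 difference -0.43, SE 0.136, limma adjusted p = 0.0204).

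Ndufaf1, which joins Ecsit and Acad9 in the complex that assembles the membrane arm, fell with a log2 difference of -0.36 (limma adjusted p = 0.0225). Ndufaf3, a partner of Ndufaf4 in early steps of the matrix arm, and Ndufaf7, a protein methyltransferase, each fell with a log2 difference of -0.31 (limma adjusted p = 0.0406 and 0.0328). These 3 genes had no overlap between groups. With any 1 library left out, 1 to 3 assembly factors were called lower, where 950 to 1088 genes in all were. The assembly factors called were 1 without control replicate 1, 2 without control replicate 2 or 3, and 3 without any 1 of the overexpression replicates. Only Ndufaf2 was called in all 6 of these fits.

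The other 3 assembly factors overlapped between groups and did not pass the test in TPM. Ndufaf4 measured 35.9, 41.8 and 33.9 TPM in controls and 42.6, 45.2 and 38.6 TPM under overexpression (log2 difference 0.18, SE 0.115, limma adjusted p = 0.196). Ndufaf5, which hydroxylates an arginine of Ndufs7, measured 25.7, 26.4 and 21.9 TPM against 22.6, 28.1 and 26.6 TPM (log2 difference 0.06, SE 0.125, limma adjusted p = 0.684). Ndufaf8, the partner of Ndufaf5, measured 35.8, 35.2 and 28.2 TPM against 31.3, 29.1 and 28.5 TPM (log2 difference -0.15, SE 0.12, limma adjusted p = 0.297). After rescaling the differences were -0.43, -0.54 and -0.75, and all 3 were called lower, so for Ndufaf4 and Ndufaf5 the sign depends on the scaling.

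Summed over genes, subunit RNA stood at 16465, 15593 and 14865 TPM in controls and 10113, 10468 and 10701 TPM under overexpression, or 0.667 times the control mean. Assembly factor RNA summed to 246, 241 and 213 TPM in controls and 199, 213 and 198 TPM under overexpression, or 0.870 times. The subunit sums separated the groups by a wide gap, whereas for the assembly factors control replicate 3 and overexpression replicate 2 were almost level. The ratio of the 2 sums, which no scaling of a whole library can move, was 66.9, 64.7 and 69.9 in controls and 50.9, 49.3 and 54.1 under overexpression. As a share of nuclear-encoded TPM, subunits made up 3.05 to 3.18% in controls and 1.64 to 1.82% under overexpression.

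**Figure D3:**
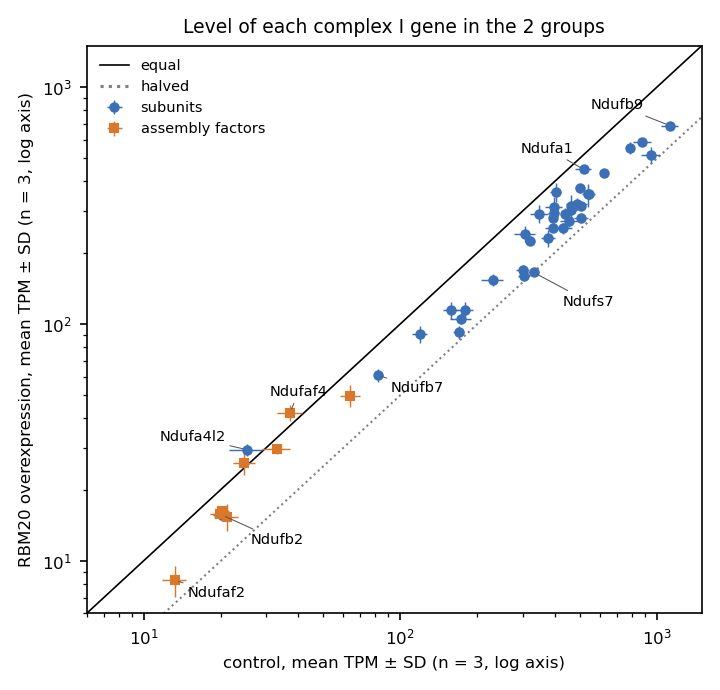
Mean TPM under overexpression against mean TPM in controls for the 46 genes, with SD bars (n = 3 each) and log axes. The solid line marks equal levels and the dotted line a halved level. Subunits lie mainly between both lines, with Ndufs7 on the dotted one, and Ndufaf4, Ndufaf5 and Ndufa4l2 lie just above the solid line.

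The subunit median lay 0.27 below that of the assembly factors on the log2 scale. Quantile normalization, which forces all libraries to 1 distribution, turned this difference to 0.015, so the 2 classes are not separated under every scaling. Across the 46 members the log2 difference was lower where the log2 control mean was higher (Pearson -0.54, Spearman -0.40). Among the 38 subunits alone the values were -0.42 and -0.18. The control values enter both quantities, so noise alone pushes these correlations negative. The 1 added to TPM also shrinks the differences of low genes. The part of level in the difference between classes was not tested. As a description by TPM level, 18.5% of the 3341 tested genes within the subunits' range of control means were called lower, and 11.3% of the 3549 within the assembly factors' range. The ranges are wide, 20.2 to 1124 TPM for subunits and 13.2 to 64.0 TPM for assembly factors, and do not match genes one by one.

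**Figure D4:**
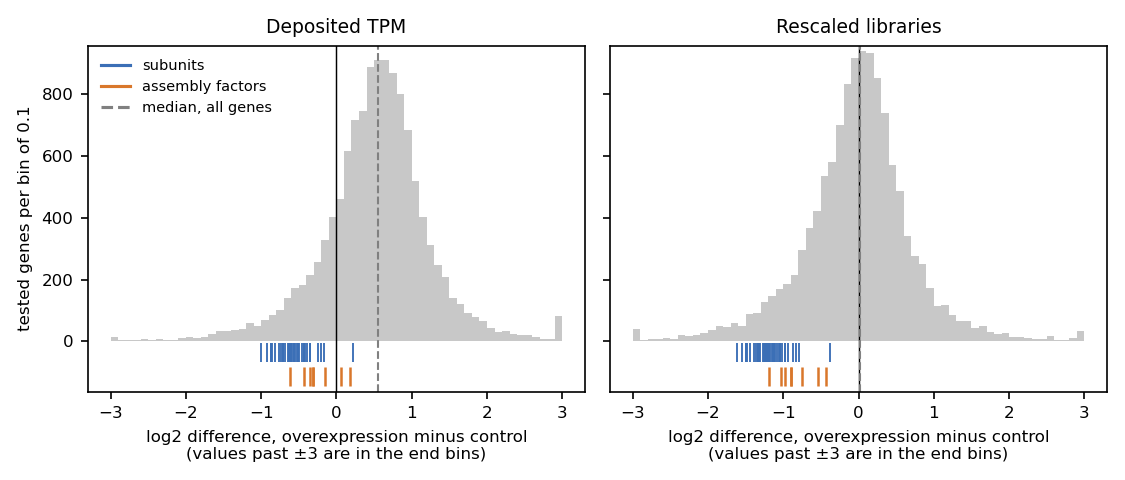
Distribution of the log2(TPM + 1) difference, overexpression minus control, for all 12404 tested genes in bins of 0.1, as deposited (left) and rescaled (right), with ticks for subunits (blue) and assembly factors (orange) and a dashed line at the median of all genes. As deposited, the median of all genes is at 0.55, that of the assembly factors at -0.31 and that of the subunits at -0.58.

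Levels between genes depend on the length behind each TPM. All 46 members gave whole reads when TPM were multiplied by the length of the longest GENCODE M21 transcript, and in 13 of them that transcript is not protein-coding. Ndufb7 is an example, where a retained-intron transcript of 4435 nt set the scale at 82.2 TPM in controls, and the longest coding transcript of 623 nt would give 585. Length matters as well where the longest transcript is coding. In controls Ndufb2 was at 20.2 TPM with 4371 nt and would be at 193.6 with its next coding transcript of 455 nt. Ndufaf4 was at 37.2 TPM with 3632 nt and would be at 200.9 with 673 nt. A gene's own length is the same in every library and cancels from its ratio between groups. The lengths of all genes still enter the TPM total of each library, so they can shift every difference. Voom on recovered reads with total reads as library size gave a subunit median of -0.74 and Ndufaf5 at -0.103. Class levels, sums, the ratio of sums, the ranges of control means and the correlations with control level rest on the lengths used. Read numbers recovered in this way were 329 to 40361 per member and library. Ndufb4 has near-identical copies in the genome, so its value may hold or lose reads of these.

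The 7 membrane-arm core subunits are made from mitochondrial DNA. Of these, mt-Nd1, mt-Nd2 and mt-Nd4 fell in TPM, where 9.09% of all tested genes were called lower. After rescaling, where that share of all tested genes was 24%, 6 of the 7 were called lower. Their summed level was 225810 to 246930 TPM in controls and 178660 to 199060 TPM under overexpression, or 0.797 times. The largest of the 3 falls was in mt-Nd1, which measured 72313, 61605 and 72113 TPM against 45855, 44925 and 56039.8 TPM (log2 difference -0.49, SE 0.134, limma adjusted p = 0.0108). These 3 calls were lost with no filter on low genes (limma adjusted p = 0.316 to 0.454) and without overexpression replicate 2 (0.0589 to 0.153). Under quantile normalization mt-Nd2 was at -0.105 and not called (limma adjusted p = 0.366). That setting gives a gene of the same rank in every library the same value. It left mt-Nd1 and mt-Nd4 level between groups, so it cannot test their falls. The call of mt-Nd4 was also lost with no trend and without control replicate 2 or 3 or overexpression replicate 1 (limma adjusted p = 0.0596 to 0.145). In mt-Nd3 a single library stood apart, with 444 and 726 TPM in overexpression replicates 1 and 2 and 2987 TPM in replicate 3, against 1009.6 to 1632 TPM in controls. Without replicate 3 the log2 difference of mt-Nd3 was -1.13 and called lower (limma adjusted p = 0.006), and without replicate 1 it was 0.24.

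Assembly factors with other names were followed through a list of 12 genes, of which 11 were in the table and tested. In TPM 5 were called lower and 2 higher (median -0.25), where 9.09% of all tested genes were called lower and 59% higher. After rescaling 9 were lower and 0 higher, where the shares of all tested genes were 24% and 22.2%. Foxred1, an oxidoreductase-like protein needed for assembly, fell from 39.0, 41.2 and 35.5 TPM to 16.1, 17.6 and 19.0 TPM (log2 difference -1.09, SE 0.112, limma adjusted p = 9.04e-05). Nubpl, which delivers iron-sulfur clusters to the complex, fell from 7.30, 7.25 and 6.78 TPM to 2.68, 2.69 and 3.03 TPM (log2 difference -1.09, SE 0.137, limma adjusted p = 0.000223). In TPM both differences exceeded that of every Nduf gene, while after rescaling Nubpl, at -1.59, was behind Ndufs7, at -1.62. The 1 added to TPM shrinks the difference of a gene as low as Nubpl. Mean TPM was 0.394 times the control mean for Nubpl and 0.499 times for Ndufs7, so this order does not show a smaller fall of Nubpl. Foxred1 and Nubpl both left a wide gap between groups. The others called lower were Dmac2, Tmem70 and Ecsit. The call of Ecsit (limma adjusted p = 0.0368) was lost with no trend and without control replicate 2 or 3 or overexpression replicate 2 or 3 (limma adjusted p = 0.0582 to 0.148).

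Dmac1, a factor for the distal membrane arm, rose in TPM from 66.7, 68.4 and 55.3 to 89.3, 98.1 and 91.3 (log2 difference 0.55, limma adjusted p = 0.00204). Lyrm2, a LYR-motif factor for the NADH-oxidising tip, rose from 27.3, 32.7 and 29.2 TPM to 37.7, 41.3 and 41.5 TPM (log2 difference 0.42, limma adjusted p = 0.00743). Neither difference was above the median of 0.55 over all tested genes. After rescaling the differences of Dmac1 and Lyrm2 became -0.071 and -0.18, and neither was called (limma adjusted p = 0.567 and 0.167). Quantile normalization also ended both calls, and removal of mitochondrially encoded genes and voom with total reads ended that of Lyrm2.

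Cell type markers are given beside these values, against the 9.09% of all tested genes called lower and 59% higher in TPM, and 24% and 22.2% after rescaling. Of 10 cardiomyocyte markers, 5 were called lower and 2 higher in TPM, and 8 lower and 0 higher after rescaling. Their sum was 40513 to 45295 TPM in controls and 30590 to 35996 TPM under overexpression, or 0.794 times. Single markers differed widely, from 0.105 times for Ryr2 and 0.143 for Pln to 1.43 for Actc1 and 1.66 for Actn2. Mb had the largest change in TPM, with means of 10235 in controls and 3590 under overexpression, so the sum does not show a uniform fall. All 8 macrophage markers were higher under both scalings, with sums of 209 to 264 TPM against 532 to 829 TPM. Among the fibroblast markers, 5 of 8 were higher and 1 was lower in TPM, a share close to that of all genes. After rescaling 3 rose and 3 fell. Sums were 1313 to 1753 TPM in controls and 1612 to 1802 TPM under overexpression. Single genes moved further than these sums, with Col1a1 at 8.43, Col1a2 at 6.23 and Lum at 2.16 times the control mean in TPM. The rescaled log2 differences of these genes were 2.38, 1.97 and 0.49. Gsn, Dcn and Dpt fell after rescaling. Gsn, the most abundant of the fibroblast markers, went from a mean of 1030 to 767 TPM. None of 8 endothelial markers was called in TPM, and 3 were lower after rescaling. Of 7 tested pericyte and smooth muscle markers 2 were higher and 1 lower in TPM, and 1 higher and 4 lower after rescaling. All 6 lymphocyte markers were under the mean of 1 TPM, with Cd3e, Cd3g and Ms4a1 at 0 in at least 1 library. The ventricular light chain Myl2 fell from 13052 to 15118 TPM in controls to 9789.9 to 11549.7 TPM under overexpression (log2 difference -0.41, limma adjusted p = 0.00878), with no overlap. The 3 atrial markers summed to 2.33 to 4.68 TPM in controls and 14.1 to 153 TPM under overexpression. In TPM 2 of them, Myl7 and Myl4, were called higher, and after rescaling 1, Myl4. Only Myl4 had no overlap between groups. Myl7 measured 35.4, 3.07 and 116 TPM under overexpression, and Sln was at 0 in overexpression replicate 2. The part of these shifts in the complex I differences was not tested.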

How the data were processed

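The authors deposited TPM by gene symbol, per the file headers. Tools listed in the submitters' processing notes, with no roles, are STAR-Fusion 1.11.0, GATK 4.2.6.1, featureCounts 2.0.3 and edgeR 3.40.2, and the build listed is mm8. The sources used here do not give the aligner, annotation or strand setting, although the labels' protocols describe strand-specific read pairs. Groups were taken from the genotype labels, while titles use cki for control and cre for overexpression libraries. Replicates were numbered in order within groups and do not pair libraries.

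Genes averaging 1 TPM or more were tested on log2(TPM + 1), which understates the change of low genes, with limma 3.58.1 in R 4.3.3 (trended, two-sided, Benjamini-Hochberg over 12404 genes, threshold 0.05). Rescaling divided each library by the median, over genes, of its ratio to the gene's geometric mean. Summaries used Python 3.11.15 with pandas 2.3.3, and scripts were tested on simulated data. Exact permutation of 3 against 3 cannot go below p = 0.1 and was not used.

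Read numbers were recovered from TPM steps. Exon-union lengths gave few whole values, and a free search of lengths then pointed to the longest GENCODE M21 transcript. With these lengths 12196 of 12300 genes (99.2%) were whole in all libraries, against 10 with lengths 1 nt longer. Whole meant within 0.02 reads or a relative 1e-06 of a whole number, whichever was larger. The totals were 31869002 to 66871219 reads over genes with a length. M21 belongs to GRCm38, not mm8.

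Members, roles, marker lists and lists of other complex I genes were chosen with earlier results of these data known. Library values are given for core subunits, the 2 largest and 2 smallest differences of each other role group, and members not called. Values of 1 such gene are left out here. Ndufb1-ps, Foxred1, Nubpl, Dmac1, Lyrm2, mt-Nd1 and mt-Nd3 were picked with their values in view. Alternatives were other scalings, pseudocounts, filters, limma settings and each library left out, and, added after seeing the data, voom on recovered reads and rescaling with a library left out.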

Additional observations from a re-analysis of the deposited data

How the results depend on the processing

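Pseudocounts of 0.1 and 0.5, no filter, a minimum mean of 5 TPM, no trend and a robust fit kept the direction and call of all 46 members in TPM, and array weights lost the call of Ndufaf3. Scalings moved the values. Under median-ratio rescaling 8 assembly factors were called lower, with medians of -1.21 for subunits and -0.90 for assembly factors, and Ndufaf5 (-0.54), Ndufaf4 (-0.43), Ndufa4l2 (-0.38), Dmac1 (-0.071) and Lyrm2 (-0.18) turned negative. Quantile normalization also called 8 assembly factors lower, with medians of -0.83 for subunits and -0.85 for assembly factors, and their difference reversed to 0.015. It gave Ndufaf5 -0.47, Ndufaf4 -0.33, Ndufa4l2 -0.30 and Lyrm2 -0.097. Without mitochondrially encoded genes the medians were -0.87 and -0.59, and Ndufaf5 (-0.22), Ndufaf4 (-0.101) and Ndufa4l2 (-0.053) turned negative.

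Voom on recovered reads with total reads as library size, added after seeing the data, gave medians of -0.74 and -0.47 and Ndufaf5 at -0.103. With median-ratio library sizes it called 8 assembly factors lower, with medians of -1.21 and -0.93, and gave Ndufaf5 -0.56, Ndufaf4 -0.45, Ndufa4l2 -0.38, Dmac1 -0.076 and Lyrm2 -0.18. Over these settings 910 to 2974 genes in all were called lower and 2606 to 7625 higher.

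With 1 library left out, 33 to 37 members, 32 to 35 subunits and 1 to 3 assembly factors were called lower in TPM and 0 to 1 members higher. In the same fits 950 to 1088 genes in all were called lower and 6198 to 7212 higher. Ndufaf5 ranged from -0.0196 to 0.15 and mt-Nd3 from -1.13 to 0.24. After rescaling 45 to 46 members were called lower, with medians from -1.29 to -1.16 for subunits and from -0.96 to -0.80 for assembly factors. The rescaled fits called 2369 to 2839 genes in all lower and 2045 to 2639 higher. No paired analysis was possible because the labels give the groups no shared replicate numbers. Where a setting changed a value, the cause was not tested.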
